A study of Homo sapiens with 6 samples.

Results

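The genes described here are the enzymes that carry glucose carbon from uptake to pyruvate, those of the pentose phosphate pathway and the kinases that hold back pyruvate dehydrogenase, in lung cancer cells with and without silencing of AKR1B10. They were chosen by gene symbol from a fixed list of 36 genes, with the lactate dehydrogenases left out, and all 36 were found once each among the 58735 genes measured. The cells were PC9-BrM3, which derive from the lung adenocarcinoma line PC9 and readily form metastases in brain, kept in routine culture. RNA-seq was available for 3 libraries with AKR1B10 knockdown (BrM3-shAKR1B10, 1 shRNA vector) and 3 libraries of the same cells with wild-type genotype and a negative control shRNA (BrM3-shNC), so that a difference between the groups cannot be told apart from an effect of that shRNA on other transcripts. The labels do not say whether libraries came from separate cultures, and the p-values then measure only the spread between these samples, which may be technical. The comparison asked which steps of glucose use changed at the level of RNA when AKR1B10 was silenced in these cells.

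Glycolysis splits glucose into pyruvate in the cytosol and yields ATP and NADH, and many tumors run it at a high rate even with oxygen present, a habit known as the Warburg effect. The pentose phosphate pathway branches off after the first phosphorylation, where its oxidative arm makes NADPH and its non-oxidative arm exchanges sugars with glycolysis and supplies ribose for nucleotides. Most steps are served by several isozymes from separate genes, so a step can keep its total level while its isozymes shift.

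AKR1B10, an aldo-keto reductase, was lower in every library labelled as knockdown. Its level was 108, 107 and 110.2 FPKM (read counts scaled to exon length and library depth) in BrM3-shAKR1B10 against 799, 775 and 772 FPKM in BrM3-shNC, and it fell by 86.1%. Each library held between 16964504 and 18709028 reads on genes, and 3 reads on a gene with a kilobase of exon amount to between 0.163 and 0.177 FPKM. The epithelial markers EPCAM, KRT8, KRT18, KRT19 and CDH1 were all between 44.8 and 974 FPKM, with EPCAM lower (log2 fold change -0.24) and CDH1 higher (0.16) at an adjusted p of 0.00975 each in limma. In contrast, NKX2-1, NAPSA and SFTPB, which mark lung alveolar lineage, stayed at or below 0.677 FPKM in every library. Of 12 markers of fibroblasts, leukocytes, endothelium and neural cells, 1 reached the level tested. This was COL1A1, a fibroblast collagen, at 1.15, 1.17 and 1.33 FPKM with knockdown against 1.98, 2.02 and 1.96 FPKM without, and it fell by 37.0% (adjusted p = 0.00319, limma). The fibroblast markers COL1A2 and DCN were at 0 in all libraries, and the leukocyte markers PTPRC and CD14 were at or below 0.0838 FPKM and between 0.751 and 1.10 FPKM. CD68, of macrophages, lay at or below 0.0759 FPKM with knockdown and between 0.108 and 0.199 FPKM without, and PECAM1, of endothelium, between 0.233 and 0.293 FPKM and between 0.388 and 0.513 FPKM. VWF, also of endothelium, had the higher mean with knockdown, at 0.119 to 0.136 FPKM against 0.0228 to 0.127 FPKM, with overlap between the groups. The 12 markers summed to between 2.56 and 2.74 FPKM with knockdown and between 3.61 and 4.05 FPKM without. With COL1A1 left out, the remaining markers summed to between 1.39 and 1.49 FPKM and between 1.60 and 2.09 FPKM. Their part in the results was not tested. Since RNA was taken from whole cultures, fewer cells that express a gene and less of its RNA per cell cannot be told apart. No library stood apart from its group, with correlations across genes of 0.971 to 0.977 within groups and 0.948 to 0.953 between them.

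PFKP, PGAM1, TPI1 and the enolases ENO1 and ENO2 fell most clearly among the tested members, while the glucose carrier SLC2A1 and the hexokinase HK2 rose. Of the 36 members, 33 had a mean of at least 1 FPKM over the 6 libraries and were tested among 13150 genes in all. The test was limma's, on log2(FPKM + 0.1), with p-values adjusted by the Benjamini-Hochberg method. At an adjusted p under 0.05 with a change beyond 0.5 on the log2 scale, 2 members were lower, the phosphofructokinase PFKP and the phosphoglycerate mutase PGAM1, beside 7.45% of all genes tested, and 0 members were higher, beside 5.83% of all genes. At the adjusted p alone, 9 members fell and 5 rose, which is 27.3% and 15.2% of those tested beside 23.1% and 19.4% of all genes. At an unadjusted p under 0.05, 10 members were lower and 8 higher, beside 27.3% and 23.8% of all genes. With limma's voom on reads recovered from FPKM, the count of members higher past both thresholds was also 0, and at the adjusted p alone 13 members were lower and 7 higher, the 13 including PDK1, which entered the test only through its control values. These are 39.4% and 21.2% of the members beside 26.1% and 21.8% of all genes with voom. The split at the adjusted p alone was 7 lower and 6 higher with TPM scaling, beside 19.4% and 22.1% of all genes, and 6 and 7 with quantile scaling, beside 20.9% and 21.2%. The median log2 fold change was -0.080 over the members and -0.011 over all genes. With TPM scaling the medians were -0.045 and 0.025, and with quantile scaling -0.014 and 0.0061. In 22 of the 33 tested members the 3 values of one group lay wholly above those of the other, which was also so for 54.7% of all genes tested.

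**Figure D1:**
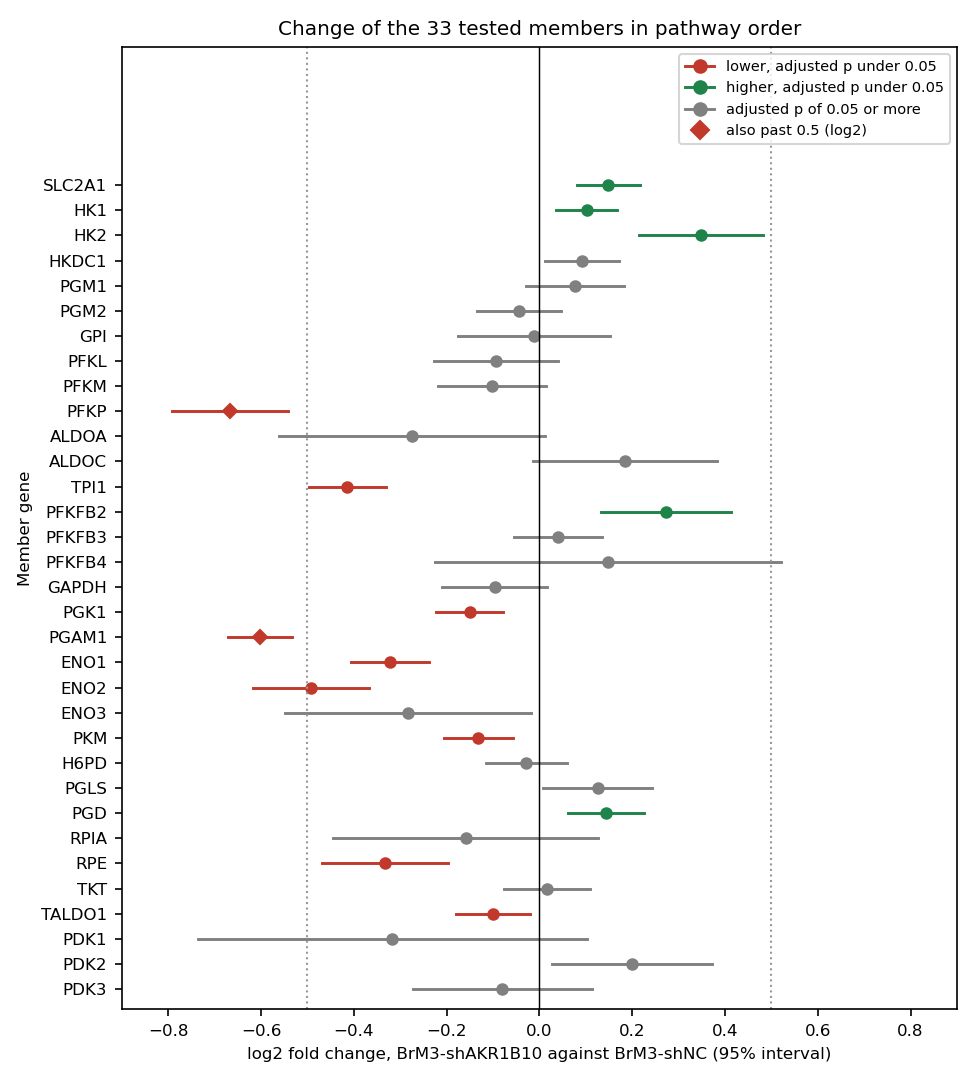
log2 fold change of the 33 tested members, BrM3-shAKR1B10 against BrM3-shNC (x axis), in pathway order from glucose entry at the top, with 95% intervals from limma. Red marks members lower and green members higher at an adjusted p under 0.05, grey the others, diamonds the 2 members also past the dotted line at -0.5, and all 7 members from GAPDH to PKM lie to the left of 0.

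Levels spanned a wide range, and levels are compared here only per length, as FPKM. GAPDH was highest at 1459 ± 26.8 FPKM (mean ± SD, n = 3) in BrM3-shNC, followed by ENO1 at 401 ± 12.0 FPKM and TPI1 at 263 ± 3.01 FPKM. PKM, PGD and PGAM1 came next at 201, 162 and 162 FPKM, and PGD and PGAM1 did not differ beyond their spread in these controls. In BrM3-shAKR1B10 the same 2 genes stood at 179 ± 5.98 and 106 ± 1.86 FPKM, with no overlap between them. The members together took 1.33%, 1.35% and 1.37% of all reads on genes in BrM3-shAKR1B10 and 1.39%, 1.43% and 1.45% in BrM3-shNC. This difference of -0.0752 percentage points left the groups without overlap, and the exact two-sided permutation test gave p = 0.1, the smallest that 3 against 3 libraries allow.

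**Figure D2:**
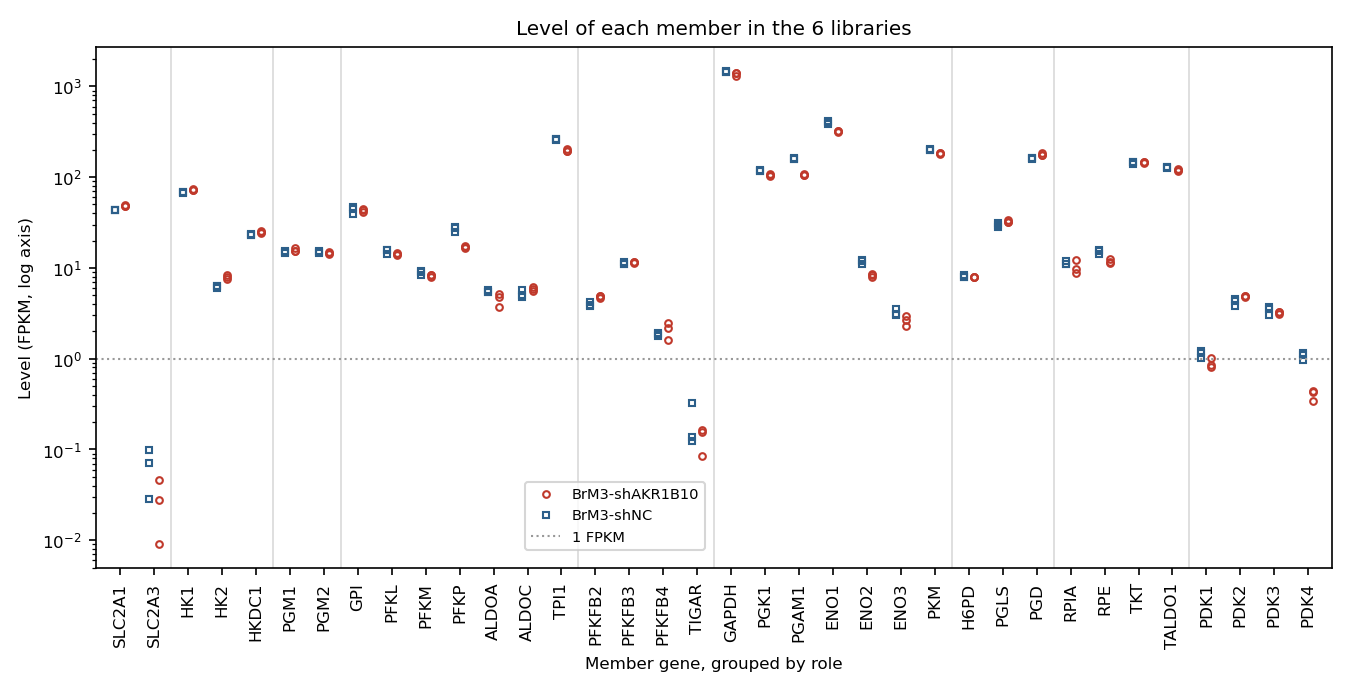
Level of each of the 36 members in FPKM on a log axis (y axis) in each library, with blue squares for the 3 BrM3-shNC libraries and red circles for the 3 BrM3-shAKR1B10 libraries, grouped by role along the x axis. The dotted line marks 1 FPKM, and SLC2A3, TIGAR and PDK4 are the 3 members whose mean lies below it.

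Promoters were taken from RefSeq (GRCh38.p14), which listed 34 of the 36 members, all but PFKFB2 and SLC2A3. For 15 of the 34, a RefSeq start site lay within 10 bases of the start of a transcript with a consensus coding sequence in GENCODE 29. In the 250 bases before those starts, on both strands, the hypoxia response core ACGTG was present in 4 of the 15 (26.7%) against 19.7% of 6214 genes handled alike, the E-box CACGTG, which contains that core, in 1 (6.67%) against 7.23%, and the antioxidant response motif TGACNNNGC in 2 (13.3%) against 11.5%. Of the 9 members that fell, 4 had such a window, and the 4 held the first motif in 0 cases and the last in 1. The windows of PFKP, which had the largest fall among the 33 tested members, and RPE are shown because they lie outside the exons of their genes, PFKP at chr10:3068377-3068626 and RPE at chr2:210002388-210002564, both on the plus strand in GRCh38, the RPE window being cut before its first exon base. Capitals mark the antioxidant response motif, which starts at position -151 from the RPE start site, and PFKP holds none of the 3 motifs in this window, which is 1 of its 4 listed starts.
PFKP: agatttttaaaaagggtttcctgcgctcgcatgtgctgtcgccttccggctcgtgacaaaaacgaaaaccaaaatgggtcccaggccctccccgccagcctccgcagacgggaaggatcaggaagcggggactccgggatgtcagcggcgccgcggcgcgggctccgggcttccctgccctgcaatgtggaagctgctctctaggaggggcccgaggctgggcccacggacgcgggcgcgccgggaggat
RPE: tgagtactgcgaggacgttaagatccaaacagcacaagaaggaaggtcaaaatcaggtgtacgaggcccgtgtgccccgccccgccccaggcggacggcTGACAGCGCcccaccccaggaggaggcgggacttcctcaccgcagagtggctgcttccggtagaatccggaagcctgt
A match of letters is a description and not a bound site.

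Among the genes of glucose entry and phosphorylation, SLC2A1 and HK2 rose, as did HK1 by a margin that did not hold in every fit. SLC2A1, which encodes the widely used glucose carrier GLUT1, was at 49.3, 48.3 and 47.7 FPKM in BrM3-shAKR1B10 against 43.7 FPKM in each of the 3 controls. The carrier thus lay above all controls in every knockdown library and rose by 10.9%, with a log2 fold change of 0.15 ± 0.028 (SE, adjusted p = 0.00618, limma). SLC2A3, the neuronal carrier GLUT3, gave 3, 1 and 5 reads in BrM3-shAKR1B10 and 8, 3 and 11 reads in BrM3-shNC. These counts lie close to the floor of 3 reads, and the carrier was not tested.

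All 3 hexokinase genes lay higher in each knockdown library than in any control, where 54.7% of all genes tested had groups without overlap in either direction. HK2, the inducible hexokinase linked with tumors, was at 8.45, 7.85 and 7.46 FPKM against 6.03, 6.28 and 6.26 FPKM. It rose by 27.3% (log2 fold change 0.35, 95% interval 0.22 to 0.48, adjusted p = 0.0031, limma), the largest rise among the members tested. HK1, the most abundant hexokinase here, was at 71.8, 72.8 and 73.8 FPKM against 67.1, 68.3 and 68.2 FPKM and rose by 7.29% (adjusted p = 0.0249, limma). That call was lost under the replicate block (adjusted p = 0.0602) and without shAKR1B10 replicate 2 or 3 or shNC replicate 2 or 3 (0.0545 to 0.0874, limma). HKDC1, a hexokinase related gene of epithelia, was at 24.5, 24.6 and 25.2 FPKM against 23.9, 22.9 and 22.9 FPKM and missed the threshold (adjusted p = 0.0651, limma), which it passed with TPM scaling (0.0155), with quantile scaling (0.0254) and without shNC replicate 1 (0.0407). The 3 genes summed to 105 ± 0.959 FPKM with knockdown and 97.3 ± 0.283 FPKM without. HK2 supplied 7.51% of that sum against 6.36% in the controls, and HK1 kept the largest part with 69.0% and 69.7%.

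PGM1 and PGM2, phosphoglucomutases that link glucose 1-phosphate and other sugar phosphates with the pathway, overlapped between the groups. PGM1 lay between 14.7 and 16.6 FPKM and PGM2 between 14.4 and 15.5 FPKM over all 6 libraries. PGM1 shares 4.68% of its exon bases with ITGB3BP on the opposite strand, which stood at 4.86 FPKM with knockdown and 7.87 FPKM without, and the part of those reads in the PGM1 values was not tested. The 95% intervals of their log2 fold changes were -0.029 to 0.18 and -0.13 to 0.047. GPI, the glucose 6-phosphate isomerase, was at 44.7, 40.9 and 43.5 FPKM against 39.4, 44.2 and 46.8 FPKM, which spread wider among the controls than between the groups (log2 fold change -0.012, 95% interval -0.18 to 0.15).

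At phosphofructokinase, the committing step of glycolysis, 1 of 3 isozymes fell at the adjusted p, beside 23.1% of all genes tested. PFKP, the platelet type isozyme (chr10:3066333-3137712, plus strand, GRCh38), was at 17.1, 17.4 and 16.4 FPKM in BrM3-shAKR1B10 against 25.2, 28.3 and 27.6 FPKM in BrM3-shNC. All knockdown libraries lay well below all controls, and PFKP fell by 37.0% (log2 fold change -0.67 ± 0.0525 SE, adjusted p = 0.000166, limma), the largest fall of the tested members. PFKL, the liver type, was at 13.9, 14.2 and 14.7 FPKM against 14.1, 15.9 and 15.8 FPKM. PFKM, the muscle type, was at 8.27, 8.43 and 7.97 FPKM against 8.97, 9.16 and 8.38 FPKM. Both sets of libraries overlapped for PFKL and PFKM, whose adjusted p were 0.217 and 0.138 (limma). PFKM shares 8.58% of its exon bases with SENP1 on the opposite strand, at 2.73 FPKM against 3.58 FPKM. PFKL passed without shNC replicate 1 (log2 fold change -0.15, adjusted p = 0.0290, limma). The summed level of the 3 isozymes was 39.4, 40.0 and 39.1 FPKM with knockdown and 48.2, 53.4 and 51.8 FPKM without. The share of PFKP in that sum was 43.6%, 43.4% and 42.0% against 52.2%, 53.0% and 53.3%. Of the summed FPKM, PFKL took 36.2% in place of 29.8% and PFKM 20.8% in place of 17.3%. In each of these 3 shares the groups did not overlap, and the exact two-sided permutation test gave its smallest value, p = 0.1. The 3 shares of a library add up to the whole, so they are not separate results. The mean levels of PFKL and PFKM were themselves lower with knockdown, at 14.3 against 15.3 FPKM and 8.22 against 8.84 FPKM. As shares of reads, not divided by length, PFKP took 30.4% with knockdown and 39.4% without.

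**Figure D3:**
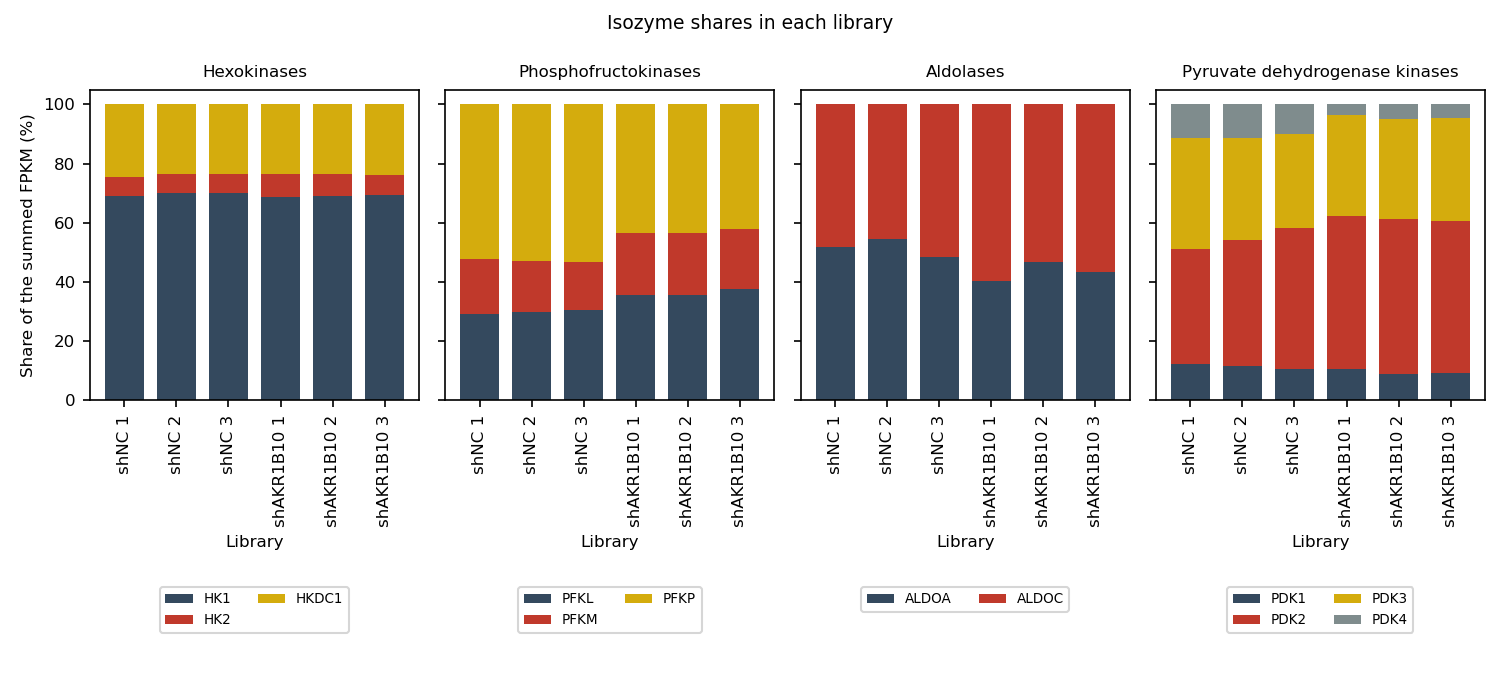
Share of each isozyme in the summed FPKM of its enzyme (y axis, percent) in each of the 6 libraries, for hexokinases, phosphofructokinases, aldolases and pyruvate dehydrogenase kinases. PFKP falls from 52.8% to 43.0% of phosphofructokinase and PDK4 from 10.9% to 4.29% of the kinases (means of 3 libraries), while the hexokinase bars hardly change.

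Fructose 2,6-bisphosphate, the strongest activator of phosphofructokinase, is made and removed by the bifunctional PFKFB enzymes. PFKFB2 was at 4.92, 4.95 and 4.65 FPKM against 3.82, 4.22 and 3.92 FPKM and rose by 20.8% (adjusted p = 0.0101, limma). PFKFB3, the isozyme with the highest kinase activity and the most abundant of the 3 here, lay between 11.0 and 11.7 FPKM in all libraries (95% interval of the log2 fold change -0.054 to 0.13). PFKFB4 lay at 1.62 to 2.47 FPKM with knockdown and 1.78 to 1.93 FPKM without, with a wide interval of -0.22 to 0.52. TIGAR, a phosphatase that lowers the same activator, gave 6 to 22 reads per library, under the level tested. Of its exon bases, 45.6% are shared with other annotated genes, and 96.0% of its coding bases.

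Aldolase splits fructose 1,6-bisphosphate into the trioses. ALDOA was at 3.70, 5.19 and 4.77 FPKM against 5.39, 5.65 and 5.39 FPKM and ALDOC at 5.51, 5.88 and 6.22 FPKM against 5.04, 4.73 and 5.73 FPKM. Neither passed the threshold (adjusted p = 0.11 and 0.118, limma), though ALDOA lay below all controls in each knockdown library. ALDOA passed with voom (adjusted p = 0.0347) and without shAKR1B10 replicate 2 (adjusted p = 0.0485), whereas without shAKR1B10 replicate 1 its log2 fold change was -0.13 in place of -0.27. ALDOC passed without shNC replicate 3 (adjusted p = 0.0377, limma). The ALDOA level is uncertain, since 53.5% of its exon bases and 93.8% of its coding bases are shared with other annotated genes, chiefly AC093512.2 on the same strand, and how such reads were counted is not given in the sources used here. With the reads of AC093512.2 added, a choice made after seeing the data, the log2 fold change was -0.29 with an adjusted p of 0.0687 (limma).

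TPI1, the triose phosphate isomerase, lies at chr12:6867119-6870948 on the plus strand. It was at 194, 205 and 192 FPKM against 266, 259.9 and 262 FPKM, with a gap between the groups several times the spread within them. TPI1 fell by 25.0% (log2 fold change -0.41, 95% interval -0.50 to -0.33, adjusted p = 0.000215, limma). Of the 7 genes from GPI to TPI1, 2 fell (28.6%, beside 23.1% of all genes) and 0 rose (beside 19.4%) at limma's adjusted p. At an unadjusted p under 0.05, 0 were higher, beside 23.8% of all genes. Voom called 3 of the 7 lower, with ALDOA added, and 0 higher, beside 26.1% and 21.8% of all genes with voom.

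From glyceraldehyde 3-phosphate to pyruvate, all 7 members had lower means with knockdown and no overlap between the groups, and 5 of the 7 fell at the adjusted p. Over all genes tested, 54.7% had groups without overlap and 23.1% fell at the adjusted p. With voom on recovered reads, all 7 passed it, as did 26.1% of all genes in the lower direction. PGAM1 (chr10:97426160-97433441, plus strand), which moves the phosphate of 3-phosphoglycerate, had the lowest adjusted p among the members. Its level was 104, 108 and 107 FPKM in BrM3-shAKR1B10 against 164, 161 and 160.4 FPKM in BrM3-shNC. PGAM1 fell by 34.1% (log2 fold change -0.60 ± 0.0287 SE, adjusted p = 2.75e-05, limma). Its 13 annotated pseudogenes took reads equal to between 0.631% and 2.22% of its own in each library.

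Enolase makes phosphoenolpyruvate, and 2 of its 3 genes fell, beside 23.1% of all genes tested. ENO1, the common isozyme, was at 326, 313 and 324 FPKM against 388, 406 and 410.4 FPKM and fell (log2 fold change -0.32 ± 0.0353 SE, adjusted p = 0.00064, limma). ENO2, the neuron type isozyme that carcinoma lines often express, was at 7.88, 8.57 and 8.40 FPKM against 11.8, 11.1 and 12.1 FPKM and fell by 28.9% (log2 fold change -0.49, adjusted p = 0.000569, limma). It sat just short of the fold change threshold, and became the third member called lower when shAKR1B10 replicate 2, shAKR1B10 replicate 3 or shNC replicate 2 was left out. ENO3, the muscle isozyme, was at 2.97, 2.27 and 2.68 FPKM against 3.03, 3.13 and 3.50 FPKM (adjusted p = 0.0819, limma) and passed with voom (0.0366) and without shAKR1B10 replicate 1 (0.0477). ENO3 shares 2.59% of its exon bases with PFN1 on the opposite strand, which stood at 256 FPKM with knockdown and 353 FPKM without, and the part of those reads in the ENO3 values was not tested. ENO1 supplied 96.7% of the summed enolase level with knockdown and 96.4% without.

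The remaining steps of lower glycolysis differed by smaller amounts. PGK1, the phosphoglycerate kinase that yields the first ATP, was at 109, 106 and 104 FPKM against 118, 118 and 119 FPKM and fell by 9.91% (adjusted p = 0.00804, limma). PKM, the pyruvate kinase, was at 181, 182 and 186 FPKM against 197, 199.9 and 206 FPKM and fell by 8.75% (adjusted p = 0.0145, limma). The call for PKM did not hold with TPM or quantile scaling or without shAKR1B10 replicate 1 or 2, and that for PGK1 did not hold with quantile scaling. GAPDH, which is often used as a reference gene, was at 1286, 1390.5 and 1419 FPKM against 1447, 1440.0 and 1489 FPKM. The GAPDH difference of -0.097 on the log2 scale did not pass the threshold (95% interval -0.21 to 0.017, adjusted p = 0.146, limma) though it did with voom (0.0262), and as a share of all reads the groups overlapped, with 0.393% to 0.431% against 0.423% to 0.438%. AC006064.4, on the opposite strand of 14.2% of the GAPDH exon bases, had 0 reads in all libraries.

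**Figure D4:**
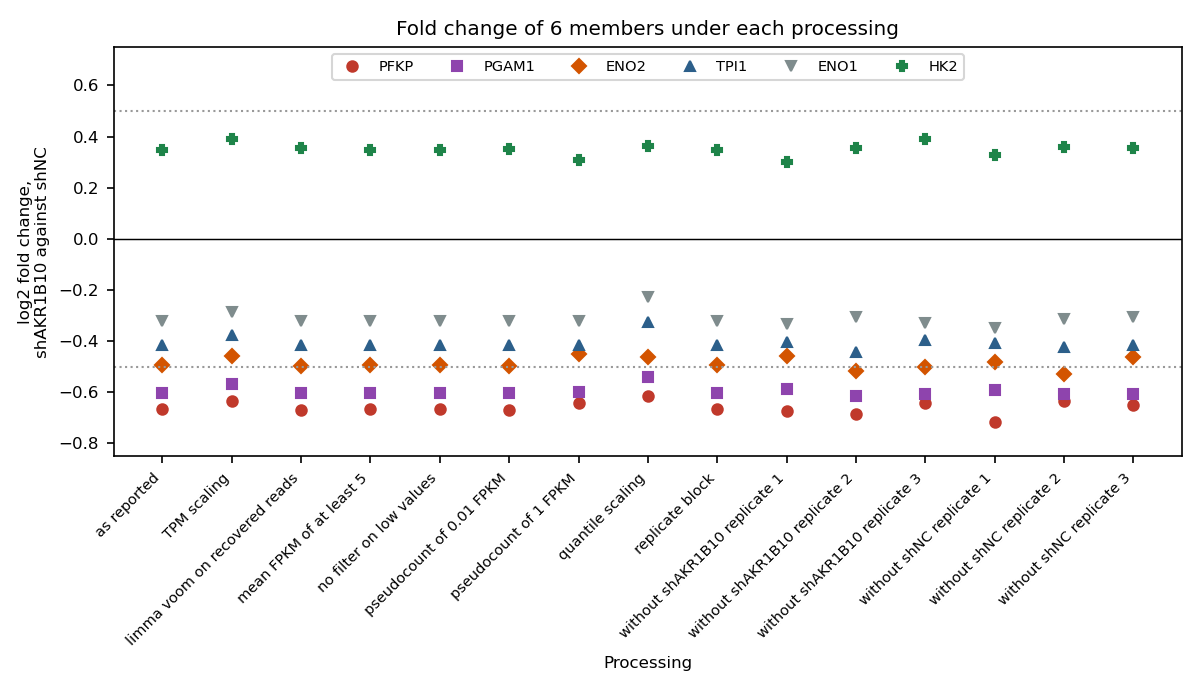
log2 fold change of 6 members, BrM3-shAKR1B10 against BrM3-shNC (y axis), as reported and under each alternative processing (x axis). PFKP and PGAM1 stay below the dotted line at -0.5 throughout, ENO2 crosses it in 3 fits that leave out a library, and HK2 stays between 0.30 and 0.39.

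The oxidative arm of the pentose phosphate pathway was represented by 3 members. PGD, the phosphogluconate dehydrogenase that makes NADPH, was at 174, 176 and 186 FPKM against 161, 160.4 and 164 FPKM. All knockdown libraries lay above all controls, and PGD rose by 10.5% (log2 fold change 0.14, adjusted p = 0.0155, limma), a call that did not hold without shNC replicate 2. PGLS, the phosphogluconolactonase, was at 31.8, 33.4 and 32.1 FPKM against 27.9, 29.8 and 31.4 FPKM (adjusted p = 0.0836, limma) and passed with voom (0.0469), with quantile scaling (0.0134) and without shNC replicate 3 (0.0368). H6PD, the dehydrogenase of the endoplasmic reticulum, lay within 7.89 and 8.26 FPKM in all 6 libraries (95% interval of the log2 fold change -0.12 to 0.058).

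In the non-oxidative arm 2 of 4 members fell and 0 rose at limma's adjusted p, beside 23.1% and 19.4% of all genes tested. The count higher was also 0 at an unadjusted p under 0.05 (beside 23.8% of all genes) and with voom (beside 21.8%). RPE, the ribulose phosphate epimerase, was at 11.3, 11.7 and 12.6 FPKM against 15.6, 15.2 and 14.2 FPKM and fell by 20.6% (log2 fold change -0.33, adjusted p = 0.00415, limma). KANSL1L, on the opposite strand, shares 23.8% of the RPE exon bases but none of its coding bases, and stood at 1.25 FPKM with knockdown and 1.33 FPKM without. TALDO1, the transaldolase, was at 122, 117 and 119 FPKM against 125, 129 and 131 FPKM and fell by 6.73%, which passed narrowly (adjusted p = 0.0492, limma). That call did not hold with TPM or quantile scaling, without a filter, under the replicate block or when any library other than shNC replicate 1 was left out. TKT, the transketolase, overlapped between the groups at 142 to 148 against 138 to 148 FPKM, and RPIA, the ribose phosphate isomerase, at 8.88 to 12.3 against 10.9 to 12.1 FPKM. The 95% interval was -0.075 to 0.11 for TKT and -0.44 to 0.13 for RPIA. Without shAKR1B10 replicate 1, RPIA passed with a log2 fold change of -0.30 (adjusted p = 0.0197, limma).

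The pyruvate dehydrogenase kinases, which keep pyruvate out of mitochondrial oxidation, were all expressed at low levels. Of the 3 tested, which include PDK1, 0 passed the adjusted p in limma, beside 23.1% lower and 19.4% higher of all genes. At an unadjusted p under 0.05, 0 were lower and 1 higher, beside 27.3% and 23.8% of all genes. The 1 was PDK2, which also passed the adjusted p with voom (0.0352) and without shNC replicate 3 (0.0387). PDK4, the isozyme induced by fasting and fatty acids, was below the level tested with a mean of 0.735 FPKM. It gave 27, 36 and 34 reads in BrM3-shAKR1B10 against 91, 88 and 79 reads in BrM3-shNC, or 0.338, 0.441 and 0.424 FPKM against 1.10, 1.15 and 0.958 FPKM. The groups lay far apart, and in the fit without a filter the log2 fold change was -1.22 ± 0.19 (SE) with an adjusted p of 0.00801 (limma). With that fit PDK4 joined PFKP and PGAM1 past both thresholds.

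PDK1, the isozyme induced by hypoxia, was at 1.01, 0.815 and 0.852 FPKM against 1.22, 1.16 and 1.03 FPKM and entered the test only through its control values (adjusted p = 0.19, limma, and 0.00975 with voom), so that nothing is read from its test. PDK2 was at 4.87, 4.85 and 4.81 FPKM against 3.80, 4.30 and 4.55 FPKM (adjusted p = 0.064, limma), and SAMD14 on the opposite strand shares 38.6% of its exon bases but gave at most 15 reads. PDK3 overlapped between the groups at 3.12 to 3.27 against 3.05 to 3.69 FPKM. The summed level of the 4 kinases was 9.35 ± 0.121 FPKM with knockdown and 9.83 ± 0.261 FPKM without. Within that sum, PDK2 took 51.8% with knockdown in place of 42.9% and PDK4 4.29% in place of 10.9%, and neither share overlapped between the groups (p = 0.1, again the lowest that the exact permutation test can give). Here too the shares of a library add up to the whole and are not separate results.

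A further list of 45 genes covered the rest of glucose handling, namely other carriers, paralogs, gluconeogenesis, ribose use, glycogen and hexosamine synthesis. Of these, 26 were expressed at the level tested, 8 fell and 4 rose at the adjusted p, and 3 were lower and 1 higher past both thresholds, with a median log2 fold change of -5.13e-04. These are 30.8% and 15.4% of the 26 at the adjusted p beside 23.1% and 19.4% of all genes, and 11.5% and 3.85% past both thresholds beside 7.45% and 5.83%. PRPS2, which turns ribose 5-phosphate into the precursor of nucleotides, was at 14.1, 13.9 and 14.3 FPKM against 26.9, 26.7 and 24.8 FPKM. It fell by 45.9% (log2 fold change -0.89, adjusted p = 2.64e-05, limma), further than any member tested, while its paralog PRPS1 lay between 32.3 and 34.1 FPKM in all libraries. Among minor carriers, SLC2A10 was at 2.09, 2.28 and 2.02 FPKM against 3.54, 3.50 and 3.31 FPKM and fell by 37.2% (adjusted p = 0.000643, limma). SLC2A12 lay between 1.39 and 2.27 FPKM with knockdown and between 2.62 and 3.09 FPKM without, and fell by 41.0% (adjusted p = 0.0164, limma). SLC2A6, a carrier of lysosomal membranes, went the other way at 6.91, 6.40 and 7.09 FPKM against 4.59, 4.34 and 4.57 FPKM and rose by 49.9% (adjusted p = 0.00035, limma). BPGM, a mutase that makes 2,3-bisphosphoglycerate from an intermediate next to the PGAM1 step, was at 8.32 ± 0.540 FPKM against 6.08 ± 0.663 FPKM (mean ± SD, n = 3), with no overlap, and rose by 36.6% (adjusted p = 0.00734, limma).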

How the data were processed

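Libraries were grouped, and replicate numbers taken, from the sample labels. According to the methods and the submitters' processing notes, the authors aligned paired-end reads with HISAT2 2.0.5, counted them per gene with featureCounts 1.5.0-p3 and deposited FPKM for 58735 genes. All positions and the exon lengths of the 36 members match GENCODE 29 (GRCh38). Whether strand was used, and how reads on several genes were counted, is not given in the sources used here. FPKM times length gave whole reads for 100% of values (tolerance 0.05), and the deposited FPKM also carry a scaling between libraries. In each knockdown library the library size implied by FPKM lay above the reads on genes, as with 17669819 against 17253067 in shAKR1B10 replicate 1. In each control it lay below them, as with 18350584 against 18709028 in shNC replicate 1. Relative to scaling by reads on genes, this lowers FPKM with knockdown, and voom used the same library sizes. Beyond TPM and quantile scaling, its part in small fold changes was not tested.

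Genes whose mean reached 1 FPKM entered a comparison of log2(FPKM + 0.1) by limma 3.58.1 (R 4.3.3, lmFit and eBayes with trend) and Benjamini-Hochberg adjustment over 13150 genes, so that fold changes of low genes are understated. Members, lists and tests were chosen with earlier results of these data known. All members are named, as are AKR1B10, some of the genes whose exons overlap a member, and other glucose pathway genes past both thresholds, and COL1A1, CD14, CD68, PECAM1, VWF, PRPS1 and BPGM were added after their values were seen. Isozyme shares used exact two-sided permutation tests. Summaries were made with Python 3.11.15, and the fit was tested on simulated data. Limits from counting cover counting error only. Equal replicate numbers did not deviate together (correlations of -0.0155, 0.0039 and 0.0038), so libraries were not paired.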

Additional observations from a re-analysis of the deposited data

How the results depend on the processing

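Values were recomputed without a filter, with a mean FPKM of at least 5, with a pseudocount of 0.01 or 1, with TPM or quantile scaling, with voom on recovered reads, with a replicate block, and without each library in turn. Members called lower stayed at 2, or 3 with no filter, and 2 to 3 without 1 library, and members called higher at 0. At the adjusted p alone, members lower and higher were 9 and 5 as reported, 7 and 6 with TPM, 6 and 7 with quantile scaling, 13 and 7 with voom, 8 and 4 with the replicate block, and 8 to 10 and 3 to 7 without 1 library. The median of the members was -0.080 as reported, -0.045 with TPM, -0.014 with quantile scaling and -0.080 to -0.054 without 1 library. TPM moved the median of all genes by 0.037, close to the move of the members, and quantile scaling by 0.017, and the cause of the other moves was not tested. Over all genes, 980 were lower and 766 higher as reported, 1038 and 789 with voom, 873 and 902 with TPM, 967 and 719 with the replicate block, 532 and 290 with a mean of at least 5 (fewer genes tested), and 497 higher with a pseudocount of 1. Other glucose pathway genes called lower were 1 with a mean of at least 5, where fewer were tested, and 2 to 3 without 1 library, and those called higher 1 to 2. Fold changes close to 0 turned to 0.010 for PGM2 with quantile scaling and 0.0078 for H6PD with TPM, and GPI to 0.025 with TPM and 0.041 with quantile scaling. Without 1 library GPI ranged from -0.080 to 0.043 and TKT from -0.014 to 0.038. The replicate block changed the adjusted p side of HK1 and TALDO1 and of no other member. HK1 also lost its call without shAKR1B10 replicate 2 or 3 or shNC replicate 2 or 3.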

Other observations

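Hypoxia markers and NRF2 targets were examined beside the members, and each list held genes that rose and genes that fell. Of 12 hypoxia marker genes outside the members, 9 were expressed at the level tested, and 3 rose and 2 fell at the adjusted p, which is 33.3% and 22.2% of those tested beside 19.4% and 23.1% of all genes. EGLN3, an oxygen sensing hydroxylase, was at 5.90, 5.40 and 5.79 FPKM in BrM3-shAKR1B10 against 2.33, 2.23 and 2.63 FPKM in BrM3-shNC and rose with a log2 fold change of 1.22 (adjusted p = 6.94e-05, limma). ADM, the vasodilator adrenomedullin, fell with a log2 fold change of -0.40 (adjusted p = 0.0036, limma), and CA9, a carbonic anhydrase, lay at 0.136 to 0.265 FPKM against 0.751 to 1.02 FPKM, under the level tested.

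Of 13 NRF2 target genes outside the members, all 13 were tested, and 4 rose and 3 fell at the adjusted p, which is 30.8% and 23.1% of the list beside 19.4% and 23.1% of all genes. HMOX1, the heme oxygenase, was at 12.4, 10.7 and 11.4 FPKM against 4.28, 4.40 and 5.42 FPKM and rose with a log2 fold change of 1.28 (adjusted p = 0.000166, limma). GCLC, the catalytic subunit of glutathione synthesis, rose with a log2 fold change of 0.54, and GCLM, its modifier subunit, fell by 0.15 on the log2 scale (adjusted p = 7.2e-05 and 0.00858, limma). SRXN1, a sulfiredoxin, fell with a log2 fold change of -0.68 (adjusted p = 0.00457, limma). The genes named in these lists were chosen after their values were seen.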
